A study of Mus musculus with 8 samples.

Results

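The Rhox cluster is a family of reproductive homeobox genes on the mouse X chromosome. All rows of the count table whose symbol starts with Rhox were taken as members, which gave 31 of 24062 genes. They were ordered by subcluster, with 22 genes in alpha (Rhox1, 8 Rhox2 copies, 6 Rhox3 copies and 7 Rhox4 copies), 5 in beta (Rhox5 to Rhox9) and 4 in gamma (Rhox10 to Rhox13).

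Rhox genes encode homeodomain transcription factors that are known mostly from testis, epididymis, ovary and placenta. The alpha genes arose by repeated local duplication, so that the Rhox2, Rhox3 and Rhox4 copies resemble each other closely. DNA methylation is known to keep much of the cluster silent in embryonic lineages, and Rhox5 (also called Pem) is the member best known in pluripotent cells. SETDB1 and G9a/GLP, the enzymes removed or inhibited in these cells, are methyltransferases of histone H3 lysine 9.

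Poly(A) RNA was sequenced from mouse embryonic stem cells (mESCs) in 4 conditions with 2 biological replicates each. All 8 libraries came from 1 line, #33-6, which carries a conditional Setdb1 allele and was grown with LIF. WT mESCs had no addition, UNC0642-treated mESCs received 2 µM of this G9a/GLP inhibitor for 3 days, and Setdb1 KO mESCs received 800 nM 4-hydroxytamoxifen (4-OHT) for 5 days. In UNC0642-treated Setdb1 KO mESCs, called the combined condition here, the treatment was by the sample labels 800 nM 4-OHT for 2 days and then 2 µM UNC0642 for 3 days, whereas the study's methods give 5 days of 4-OHT for both KO conditions. By the labels, the combined condition and Setdb1 KO mESCs thus also differ in days of 4-OHT. Neither their comparison nor the interaction of both treatments can tell this apart from UNC0642. No library received 4-OHT without the conditional allele, so that an effect of 4-OHT itself and loss of Setdb1 cannot be told apart.

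The libraries held between 11702590 and 26807807 counts. The detection floor was set at 3 counts, which is 0.112 to 0.256 counts per 1000000 counts (CPM) depending on the library and covers counting error only. Setdb1 had 1946 and 3528 counts in WT, 2776 and 2401 in UNC0642-treated, 1117 and 927 in Setdb1 KO, and 589 and 927 in the combined condition. Its normalised level was below that of both WT libraries in the 4 KO libraries (edgeR, adjusted p = 0.181 in Setdb1 KO and 0.0746 in the combined condition, 0.0164 and 0.00593 in a fit with a replicate block). The 6 pluripotency markers (Pou5f1, Nanog, Sox2, Zfp42, Klf4 and Esrrb) all had reads in every library and summed to 2034 to 4498 CPM. Replicates 1 and 2 stood apart in every condition: the 5 fibroblast markers (Col1a1, Col1a2, Col3a1, Thy1 and Twist2) summed to 3.64 to 5.92 CPM in the 4 replicate 1 libraries and to 15.6 to 20.4 CPM in the 4 replicate 2 libraries. Col1a1, Col1a2 and Col3a1 were higher in replicate 2 in every condition. Thy1 was not: replicates 1 and 2 stood at 3.05 and 1.77 CPM in WT and at 2.39 and 1.21 in the combined condition. In the other conditions Thy1 was higher in replicate 2. Twist2 had 0 counts in the replicate 1 libraries and 1 to 3 in the replicate 2 libraries, at or below the floor. In bulk RNA, more cells of a type and more RNA per cell cannot be told apart.

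All 31 members lay on chromosome X between positions 37213804 and 38129967 (GRCm38, GENCODE M21), a stretch of 916164 bases in which the count table has 0 other genes. Near-identical sequence limits how reads can be assigned to them. The share of 100-base stretches of a member's transcripts that also occur in another gene was between 10.7% and 94.9% in the Rhox2, Rhox3 and Rhox4 copies (median 62.7%), and all of these other genes were Rhox genes. It was 0% in Rhox1, Rhox5, Rhox8 and Rhox10 to Rhox13, 6.81% in Rhox6, 2.45% in Rhox9 and 28.7% in Rhox7. Rhox6 and Rhox9 share their stretches with each other. The row named Rhox7 matched the annotated gene Rhox7a through an older symbol, and its shared stretches lie in Rhox7b and a Rhox7 pseudogene, which have no row of their own in the table. Rhox2c and Rhox3c also overlap on the same strand.

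**Figure D1:**
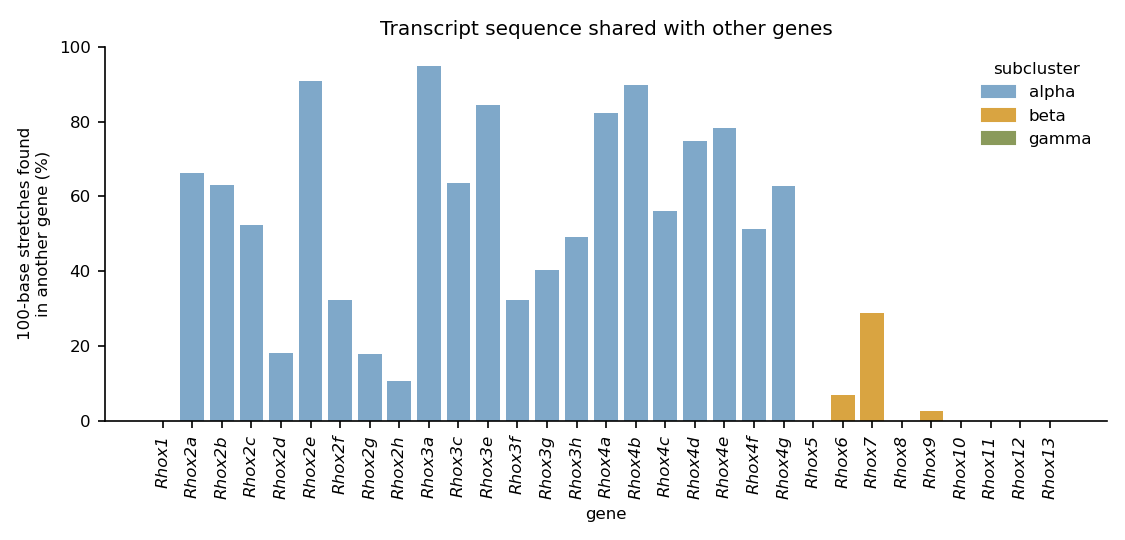
Percent of the distinct 100-base stretches of each gene's transcripts that occur in another gene (y axis) for the 31 members in cluster order (x axis), coloured by subcluster. The Rhox2, Rhox3 and Rhox4 copies stand between 10.7% and 94.9%, and outside them only Rhox6, Rhox7 and Rhox9 are above 0%.

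The 250 bases before the RefSeq transcription start are shown for 4 members (GRCm38.p6, 5′ to 3′ on the gene's strand), with CpG dinucleotides, the sites of DNA methylation, in capitals. Rhox2a had reads in both UNC0642 conditions, Rhox2c and Rhox2h are copies with few reads, and Rhox13 had its highest counts in the KO conditions.
Rhox2a (plus strand, chrX:37244742-37244991): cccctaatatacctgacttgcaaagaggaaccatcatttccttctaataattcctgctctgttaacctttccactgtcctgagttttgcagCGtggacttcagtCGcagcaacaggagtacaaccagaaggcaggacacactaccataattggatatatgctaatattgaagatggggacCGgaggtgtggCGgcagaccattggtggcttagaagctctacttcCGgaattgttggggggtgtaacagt
Rhox2c (plus strand, chrX:37453409-37453658): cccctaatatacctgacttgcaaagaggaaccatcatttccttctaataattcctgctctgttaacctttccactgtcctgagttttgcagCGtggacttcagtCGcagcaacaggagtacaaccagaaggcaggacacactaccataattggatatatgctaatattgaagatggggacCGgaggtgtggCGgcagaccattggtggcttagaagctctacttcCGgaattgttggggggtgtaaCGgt
Rhox2h (minus strand, chrX:37673278-37673527): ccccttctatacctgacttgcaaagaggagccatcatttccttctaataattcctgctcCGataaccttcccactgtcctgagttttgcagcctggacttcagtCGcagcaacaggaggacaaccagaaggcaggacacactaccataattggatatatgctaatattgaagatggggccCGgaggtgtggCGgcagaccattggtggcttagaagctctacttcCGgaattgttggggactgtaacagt
Rhox13 (plus strand, chrX:38120590-38120839): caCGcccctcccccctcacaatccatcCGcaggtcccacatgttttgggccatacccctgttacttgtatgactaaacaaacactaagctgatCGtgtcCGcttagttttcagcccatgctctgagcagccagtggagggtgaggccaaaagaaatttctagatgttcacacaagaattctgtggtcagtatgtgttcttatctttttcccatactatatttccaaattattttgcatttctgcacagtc

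The window of Rhox2a was 99.6% identical to that of Rhox2c and 95.6% identical to that of Rhox2h. Rhox2a and Rhox2h held 5 CpG each, Rhox2c 6 and Rhox13 4. The RefSeq table had such a window for 25 of the 31 members, with 0 to 8 CpG and a median of 4, beside a median of 6 over 32851 windows of all genes and of 5 over 1223 windows on chromosome X. The E-box CACGTG occurred on either strand in 4 member windows (Rhox4b, Rhox4e, Rhox4f and Rhox4g; 16% of the member windows and 6.02% of all windows). These 4 windows are 76.9% to 92.3% identical and hold the match in the same stretch, so that they are not independent matches. The GC-box core GGCGGG occurred in 2 (Rhox5 and Rhox12; 8% and 32.5%), and TATAAA in 1 (Rhox12; 4% and 12.4%). For Rhox3f the RefSeq start lies 360 bases from the GENCODE start, for Rhox13 379, for Rhox3g 473, for Rhox3e 4956, for Rhox3c 11283 and for Rhox5 50234 bases. These are matches of letters in 1 window per gene.

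Of the 31 members, 10 were silent, that is, had 0 counts in all 8 libraries. These were Rhox2f, Rhox3a, Rhox3c, Rhox3f, Rhox3g, Rhox3h, Rhox4d and Rhox4f in alpha and Rhox11 and Rhox12 in gamma, and none was in beta. Over the 8 libraries together a count of 0 allows a level of up to 0.0183 CPM, which covers counting error only. The 8 silent alpha members share 32.2% to 94.9% of their 100-base stretches with other Rhox genes. A read of such a copy can be counted under another one, so that 0 counts alone do not show that the copy itself is silent. The Rhox3 copies together had 1 count, from Rhox3e, so that hardly any reads of the silent Rhox3 copies were counted under another Rhox3 copy. Rhox3c also shares stretches with Rhox2c. Silent members made up 32.3% of the cluster, beside 13.8% of all genes in the table (3315 genes) and 19.1% of the other X-linked genes (192 of 1007). With a limit of at most 3 counts in every library, 17 members were at or below the floor, 15 of them in alpha and 2 in gamma. Reads in at least 1 of both replicates were present for 12 members in WT, 17 in UNC0642-treated, 15 in Setdb1 KO and 16 in the combined condition. These numbers depend on depth, and the shallowest 2 libraries were replicates 1 of WT and of the combined condition.

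**Figure D2:**
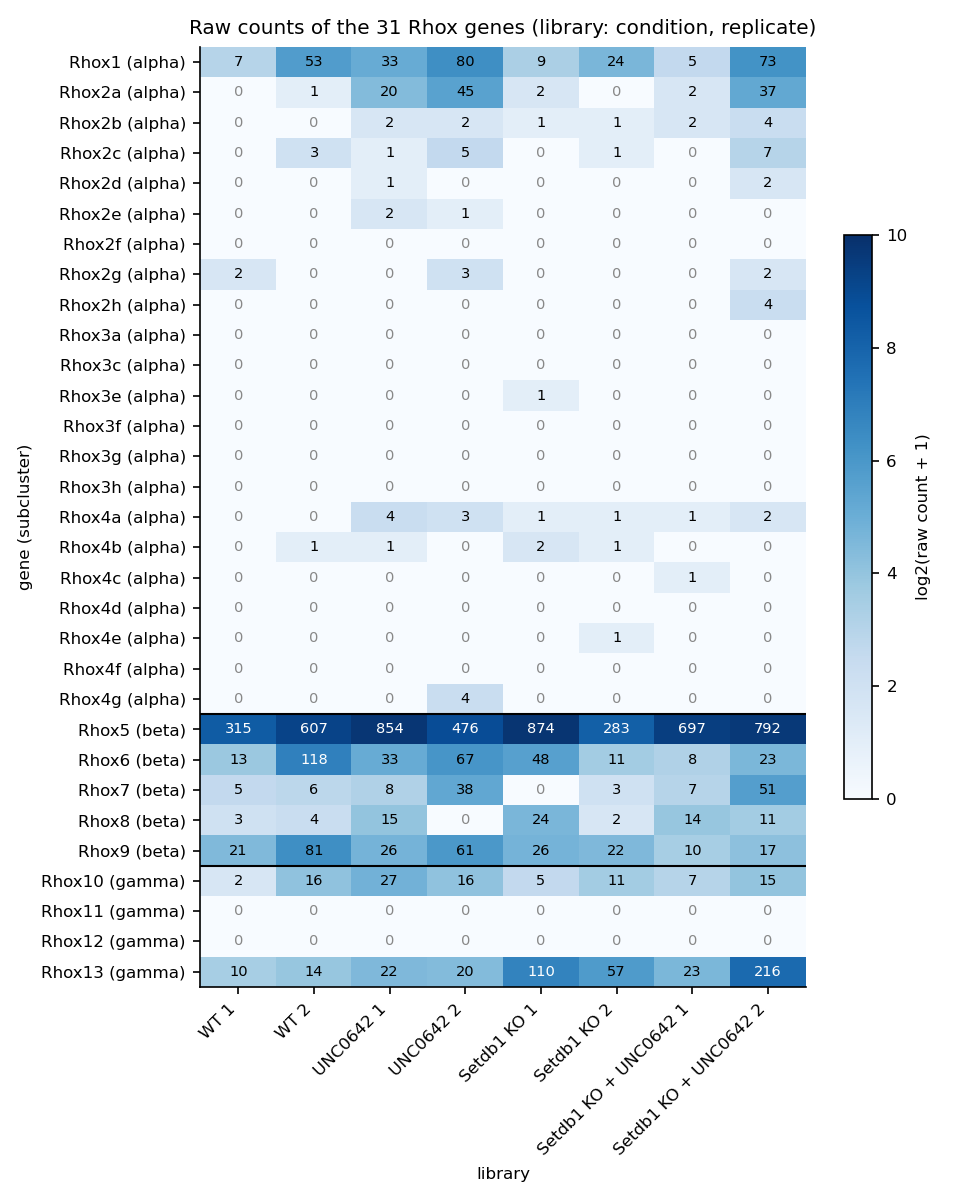
Raw counts of the 31 members (rows, in cluster order with their subcluster) in the 8 libraries (columns), printed in each cell and coloured by log2(count + 1). Rhox5 holds between 283 and 874 counts per library, the Rhox3 and Rhox4 rows are almost empty, and 10 rows hold 0 counts throughout.

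Enough reads for a test were found for 9 members: Rhox1 and Rhox2a in alpha, Rhox5 to Rhox9 in beta, and Rhox10 and Rhox13 in gamma. A gene that passed this filter only through its highest condition had to differ between conditions, so that the number of testable members is a description. They held 98.96% of the 6706 counts of the cluster, and Rhox5 alone 73.04%. The other 22 members had 70 counts in all, with at most 7 in a library, and 12 of them had any reads.

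None of the 9 members was called in any of 5 comparisons between conditions at an adjusted p under 0.05 (edgeR quasi-likelihood test, Benjamini-Hochberg adjustment over 15313 genes and 932 transposable element subfamilies). Of all 16245 features, this test called 0% in UNC0642-treated against WT mESCs, 1.12% in Setdb1 KO against WT, 4.11% in the combined condition against WT, 0% in the combined condition against Setdb1 KO and 1.16% in the combined condition against UNC0642-treated mESCs. At an unadjusted p under 0.05 the members were Rhox2a in UNC0642-treated mESCs, Rhox13 in Setdb1 KO mESCs, Rhox2a and Rhox13 in the combined condition (all over WT), Rhox2a and Rhox7 between the KO conditions, and Rhox13 between the UNC0642 conditions. In the same order, 3.35%, 8.70%, 18.0%, 4.58% and 9.07% of all features passed that limit.

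Replicates with the same number deviated together, and every comparison was therefore fitted again with the replicate number as a block. With the replicate block, Rhox2a and Rhox13 were higher in the combined condition than in WT mESCs, and 0 members were called elsewhere. Rhox2a passed the filter on low counts only through the libraries in which it was high, so its call is a description and no independent support. The same holds for Rhox7 at the unadjusted limit. The share of all features called with the block was 0.166%, 4.30%, 17.2%, 0.129% and 4.65% in the order above, so that 2 of 9 members in the third comparison stand beside 17.2% of all features. DESeq2 on all 8 libraries called Rhox13 alone, in Setdb1 KO over WT, in the combined condition over WT and in the combined condition over UNC0642-treated mESCs, where it called 3.53%, 8.65% and 3.23% of all features. In UNC0642-treated mESCs over WT and between the KO conditions it called 0.746% and 0.652% of all features and 0 members. The interaction of both treatments was called in 0 members by edgeR with and without the block and by DESeq2, with 0 members at an unadjusted edgeR p under 0.05. Of all features it was called in 0% by edgeR in both fits and in 0.00457% by DESeq2, and 0.751% had an unadjusted edgeR p under 0.05.

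**Figure D3:**
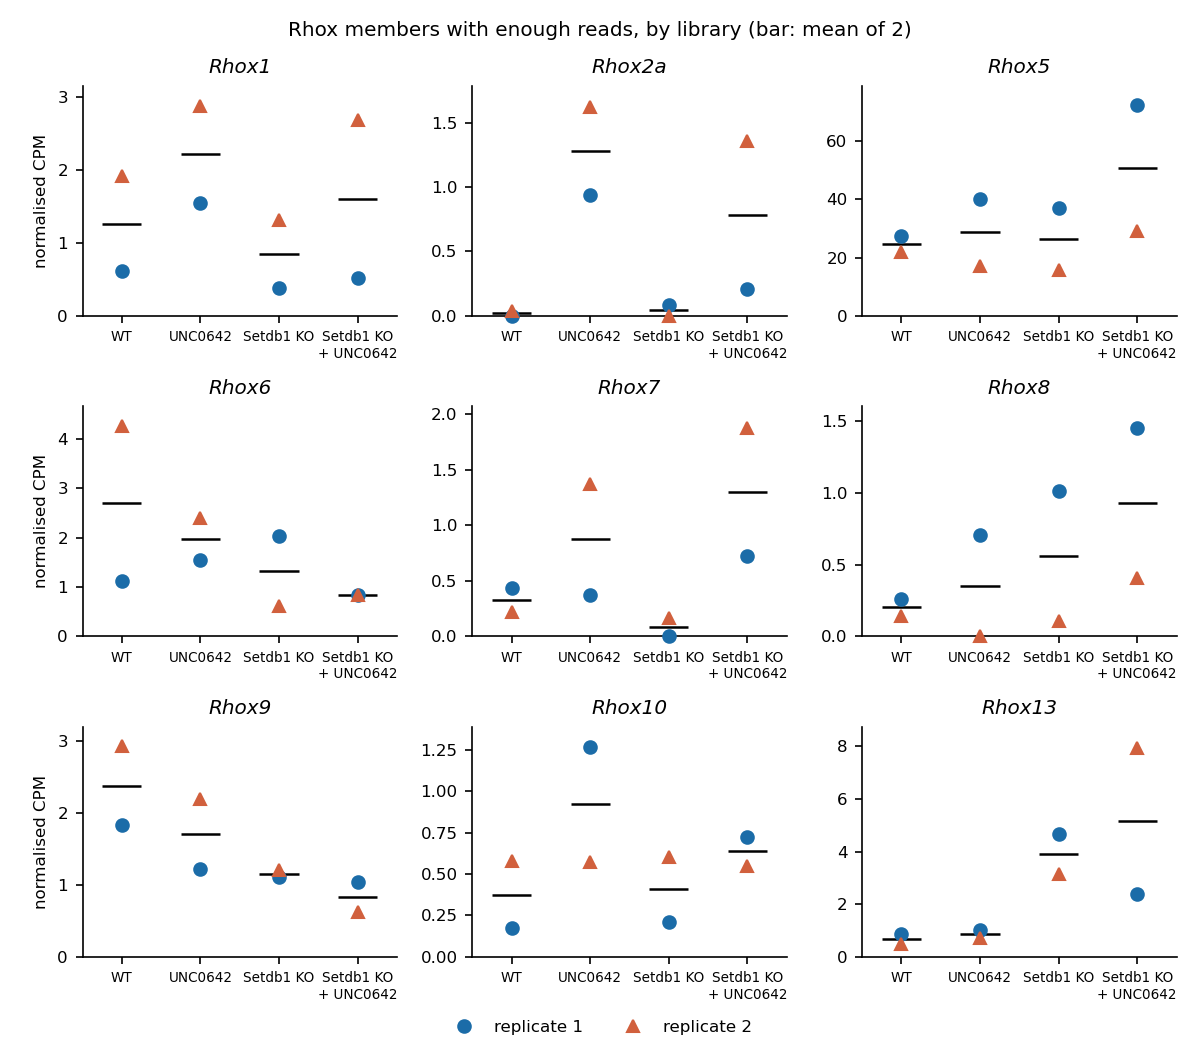
TMM-normalised CPM (y axis, from 0, with its own scale in each panel) of the 9 testable members in the 4 conditions (x axis), with replicate 1 as circles, replicate 2 as triangles and the mean as a bar. Rhox13 is higher in the 4 KO libraries than in the other 4, and Rhox2a has at most 2 counts in each of the 4 libraries of WT and Setdb1 KO mESCs.

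Rhox1 (X, 37213804 to 37222258, minus strand) opens the alpha subcluster. Its raw counts in replicates 1 and 2 were 7 and 53 in WT, 33 and 80 in UNC0642-treated, 9 and 24 in Setdb1 KO, and 5 and 73 in the combined condition. As normalised CPM these were 0.610 and 1.91, 1.55 and 2.88, 0.381 and 1.32, and 0.519 and 2.68. Replicate 2 was the higher one in 4 of 4 conditions, and the ranges of all conditions overlapped those of WT mESCs. Here and below, ranges with or without overlap of 2 libraries per condition are a description. The share of all features with ranges that do not overlap was not counted. Its log2 fold change in UNC0642-treated over WT mESCs was 0.78 (SE 0.96, adjusted p = 1 in edgeR).

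Rhox2a lies on the plus strand (X, 37244976 to 37249686) and had 0 and 1 counts in WT, 20 and 45 in UNC0642-treated, 2 and 0 in Setdb1 KO, and 2 and 37 in the combined condition. Both UNC0642-treated libraries lay above every library without the inhibitor, while the combined condition had a high replicate 2 and a replicate 1 below the floor of 3 counts. The 65 counts of UNC0642-treated mESCs against 1 count in WT gave a ratio of 51.9 after allowing for TMM-normalised library sizes (95% counting interval 8.99 to 2082). In the combined condition, 39 counts against the same 1 count gave a ratio of 41.5 (7.02 to 1681). Against 2 counts in Setdb1 KO mESCs the ratio was 22.1 (5.73 to 189.2). These intervals cover counting error and not the difference between cultures. Within replicate 2 the folds over WT mESCs were 44.9 and 37.7 on normalised CPM, while in replicate 1, with 0 counts in WT mESCs, no fold can be given.

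The fitted log2 fold changes of Rhox2a, which depend on the prior count at so few reads, were 5.41 in UNC0642-treated over WT mESCs (SE 1.46, adjusted p = 0.583 in edgeR, 0.212 with the block) and 4.79 in the combined condition over WT mESCs (SE 1.47, adjusted p = 0.117 in edgeR, 0.0422 with the block). The latter was 2.80 (adjusted p = 0.528 in edgeR) without replicate 2 of the combined condition and 7.06 without replicate 2 of WT mESCs. For UNC0642-treated over WT mESCs the log2 fold change was 7.70 without replicate 2 of WT mESCs and 3.54 with a prior count of 2, the extremes over the alternatives. Over Setdb1 KO mESCs the combined condition stood at 4.01 (SE 1.33, adjusted p = 0.810 in edgeR), with extremes of 2.06 without replicate 2 of the combined condition and 7.10 without replicate 1 of Setdb1 KO mESCs.

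Summed over the 8 copies, in which a read shared between copies can be counted under any of them, Rhox2 had 2 and 4 counts in WT, 26 and 56 in UNC0642-treated, 3 and 2 in Setdb1 KO, and 4 and 56 in the combined condition. Rhox2c reached at most 7 counts and Rhox2h at most 4, both in replicate 2 of the combined condition. Without Rhox2a, the other 7 copies together had 2 and 3 counts in WT, 6 and 11 in UNC0642-treated, 1 and 2 in Setdb1 KO, and 2 and 19 in the combined condition. Most reads of the sum were therefore counted under Rhox2a in both UNC0642-treated libraries and in replicate 2 of the combined condition. The other copies had few counts in every library. Which copy a shared read came from cannot be told.

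The 5 primitive endoderm markers (Gata6, Gata4, Sox17, Pdgfra and Dab2) also had their highest sums in UNC0642-treated mESCs, 57.7 and 60.3 CPM, beside 10.7 and 45 in WT, 8.34 and 16.3 in Setdb1 KO, and 20.4 and 16.7 in the combined condition. Of these 5 genes, 0 were called by edgeR in any comparison, 1 (Pdgfra) had an unadjusted p under 0.05 over WT mESCs in UNC0642-treated mESCs, and with the block Gata4 was lower in the combined condition than in UNC0642-treated mESCs. Their part in the counts of Rhox2a was not tested.

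The 6 Rhox3 copies had 1 count in all, from Rhox3e in replicate 1 of Setdb1 KO mESCs. The 7 Rhox4 copies, which include the gene first described as Ehox in embryonic stem cells, summed to 0 and 1 counts in WT, 5 and 7 in UNC0642-treated, 3 and 3 in Setdb1 KO, and 2 and 2 in the combined condition. No Rhox4 copy had more than 4 counts in a library.

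Rhox5 (X, 37804842 to 37808876, plus strand) was the most abundant member in every library. Its counts were 315 and 607 in WT, 854 and 476 in UNC0642-treated, 874 and 283 in Setdb1 KO, and 697 and 792 in the combined condition, or 27.4 and 21.9, 40.1 and 17.1, 37.0 and 15.6, and 72.4 and 29.1 normalised CPM. Both libraries of the combined condition lay above both WT libraries, and within each replicate number the combined condition was the highest of the 4 conditions. Within replicates 1 and 2 the folds were 2.64 and 1.33 over WT, 1.96 and 1.87 over Setdb1 KO, and 1.80 and 1.70 over UNC0642-treated mESCs. The log2 fold change over WT mESCs was 1.04 (SE 0.63, adjusted p = 0.448 in edgeR), and 0.87 with the block (SE 0.30, adjusted p = 0.0843 in edgeR). It was 0.95 over Setdb1 KO mESCs (SE 0.63, adjusted p = 0.9999 in edgeR, 0.299 with the block) and 0.82 over UNC0642-treated mESCs (SE 0.62, adjusted p = 0.922 in edgeR, 0.191 with the block).

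Rhox6 and Rhox9, earlier called Psx1 and Psx2, are known from placenta and germ cells. Rhox6 (X, 37826910 to 37829857, plus strand) was at 1.13 and 4.26 normalised CPM in WT, 1.55 and 2.41 in UNC0642-treated, 2.03 and 0.605 in Setdb1 KO, and 0.830 and 0.846 in the combined condition. Both libraries of the combined condition lay below both WT libraries, with a log2 fold change of -1.70 (SE 0.87, adjusted p = 0.352 in edgeR) that was -0.42 without replicate 2 of WT mESCs. Rhox9 (X, 37899097 to 37901770, minus strand) was at 1.83 and 2.92, 1.22 and 2.19, 1.10 and 1.21, and 1.04 and 0.625 normalised CPM in the same order. Its ranges in both KO conditions were below that in WT mESCs without overlap. The log2 fold change over WT mESCs was -0.48 in UNC0642-treated (SE 0.66, adjusted p = 1 in edgeR), -1.05 in Setdb1 KO (SE 0.67, adjusted p = 0.843 in edgeR) and -1.55 in the combined condition (SE 0.70, adjusted p = 0.283 in edgeR).

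The 10 trophectoderm markers (Cdx2, Eomes, Elf5, Gata3, Krt8, Krt18, Hand1, Ascl2, Tfap2c and Tpbpa) summed to 78.6 and 84.3 CPM in WT, 47.5 and 55.6 in UNC0642-treated, 134.1 and 61.0 in Setdb1 KO, and 69.5 and 27.9 in the combined condition. Tpbpa, a marker of placental spongiotrophoblast, was at 0 counts in 7 of the 8 libraries, and Cdx2 and Elf5 were at 0 in replicate 2 of the combined condition. Of the 7 that could be tested, 0 were called by edgeR in any comparison (1, Krt8, had an unadjusted p under 0.05 in Setdb1 KO over WT mESCs), and with the block Eomes was lower in the combined condition than in WT mESCs. Their part in the levels of Rhox6 and Rhox9 was not tested.

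Rhox7 lies on the plus strand (X, 37831686 to 37841275) and had 5 and 6 counts in WT, 8 and 38 in UNC0642-treated, 0 and 3 in Setdb1 KO, and 7 and 51 in the combined condition. The combined condition lay above Setdb1 KO and WT mESCs without overlap of the normalised values. Setdb1 KO lay below WT, with both its counts (0 and 3) at or below the floor. Between the KO conditions, 58 counts against 3 gave a ratio of 21.9 (95% counting interval 7.14 to 109.5) and a log2 fold change of 4.03 (SE 1.32, adjusted p = 0.785 in edgeR). Rhox7 passed the filter on low counts only through libraries with UNC0642, in which it was high. The ratio and the fold changes of Rhox7 are therefore a description and no independent support. Over WT mESCs the log2 fold change was 1.48 in UNC0642-treated (SE 1.14, adjusted p = 1 in edgeR), -1.95 in Setdb1 KO (SE 1.37, adjusted p = 0.894 in edgeR) and 2.08 in the combined condition (SE 1.15, adjusted p = 0.398 in edgeR).

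Rhox8 (X, 37874778 to 37878944, minus strand), known from Sertoli cells and ovary, had 3 and 4 counts in WT, 15 and 0 in UNC0642-treated, 24 and 2 in Setdb1 KO, and 14 and 11 in the combined condition. Its normalised level was higher in replicate 1 in all 4 conditions. Only the combined condition did not overlap WT mESCs, with a log2 fold change of 2.17 (SE 1.63, adjusted p = 0.560 in edgeR). Rhox8 passed the filter on low counts only through replicate 1 libraries outside WT mESCs, so that this difference is a description.

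**Figure D4:**
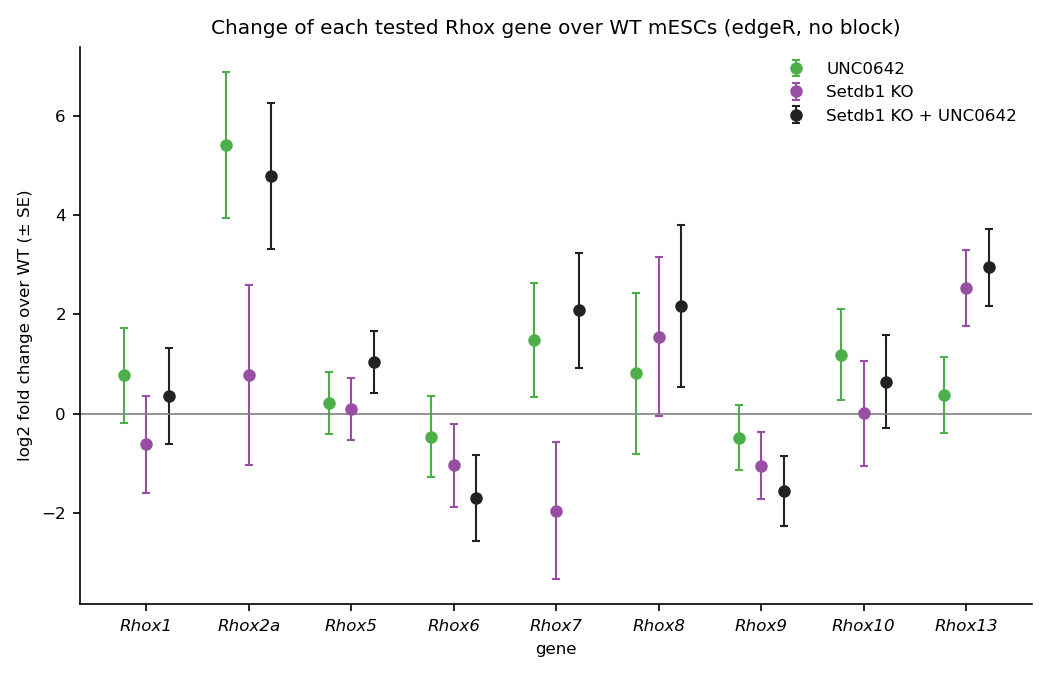
Log2 fold change over WT mESCs (y axis, edgeR without the block, bars ± SE) of the 9 testable members (x axis) in UNC0642-treated (green), Setdb1 KO (purple) and the combined condition (black). Rhox2a stands at 5.41 and 4.79 in the UNC0642 conditions and Rhox13 at 2.53 and 2.95 in the KO conditions, and 0 of the points passed an adjusted p under 0.05.

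Rhox10 (X, 38066475 to 38071691, plus strand), a gene of early male germ cells, was at 0.174 and 0.577 normalised CPM in WT, 1.27 and 0.576 in UNC0642-treated, 0.212 and 0.605 in Setdb1 KO, and 0.727 and 0.552 in the combined condition. All conditions overlapped WT mESCs. The log2 fold change in UNC0642-treated mESCs was 1.19 (SE 0.92, adjusted p = 1 in edgeR).

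Rhox13 (X, 38121219 to 38129967, plus strand), known from male germ cells, closes the cluster. Its counts were 10 and 14 in WT, 22 and 20 in UNC0642-treated, 110 and 57 in Setdb1 KO, and 23 and 216 in the combined condition. As normalised CPM these were 0.871 and 0.505, 1.03 and 0.720, 4.66 and 3.14, and 2.39 and 7.94. The 4 KO libraries were all higher than the 4 libraries without 4-OHT, and the combined condition overlapped Setdb1 KO mESCs on both sides.

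The log2 fold change of Rhox13 in Setdb1 KO over WT mESCs was 2.53 (SE 0.77, adjusted p = 0.240 in edgeR, 0.0866 with the block, DESeq2 adjusted p = 0.0423). Within replicate 1 the fold was 5.35 and within replicate 2 it was 6.21. In the combined condition over WT mESCs the log2 fold change was 2.95 (SE 0.78, adjusted p = 0.0714 in edgeR, 0.0246 with the block, DESeq2 adjusted p = 0.00440), with folds of 2.74 and 15.7 within the replicates. Without replicate 2 of the combined condition it was 1.83 (adjusted p = 0.364 in edgeR). In the combined condition over UNC0642-treated mESCs it was 2.57 (SE 0.75, adjusted p = 0.209 in edgeR, 0.0709 with the block, DESeq2 adjusted p = 0.0263), and 1.46 without the same library.

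No change of Rhox13 was called in UNC0642-treated over WT mESCs or in the combined condition over Setdb1 KO mESCs. The log2 fold change was 0.38 in UNC0642-treated over WT mESCs (SE 0.76, adjusted p = 1 in edgeR) and 0.42 in the combined condition over Setdb1 KO mESCs (SE 0.70, adjusted p = 0.9999 in edgeR). The latter was -0.67 without replicate 2 of the combined condition. With these errors a change of either sign is possible.

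Some markers of germ cells, in which Rhox13 is known, were also higher in the KO conditions. The 6 germ cell markers (Dazl, Ddx4, Sycp3, Mael, Stra8 and Tex101) summed to 180.1 to 351.6 CPM in WT, 170.7 to 222.4 in UNC0642-treated, 418.8 to 556.7 in Setdb1 KO and 325.2 to 452.4 in the combined condition, and none was at 0 counts in a library. Over WT mESCs, edgeR called Dazl, Mael and Tex101 higher in Setdb1 KO, and these and Sycp3 in the combined condition. Of all features, 1.11% and 3.6% were called higher in the same order. With the replicate block Ddx4 was also called higher in both KO conditions, beside 3.8% and 9.98% of all features. Stra8, a gene of meiotic entry, was not among the called markers. It stood at 28.2 and 107.5 normalised CPM in the combined condition against 281.6 and 129.2 in WT mESCs (log2 fold change -1.59, adjusted p = 0.296 in edgeR). The part of these markers in the level of Rhox13 was not tested.

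To compare levels between genes, counts were divided by library total and annotated exon length (CPM per kb, mean ± SD, n = 2). In WT mESCs Rhox5 was at 33.9 ± 2.58, Rhox6 at 2.88 ± 2.51, Rhox1 at 1.53 ± 1.21, Rhox9 at 1.01 ± 0.406, Rhox13 at 0.806 ± 0.240, Rhox10 at 0.529 ± 0.432, Rhox7 at 0.271 ± 0.108, Rhox8 at 0.173 ± 0.0570 and Rhox2a at 0.0236 ± 0.0333. Below Rhox5, neighbours in this order from Rhox6 to Rhox8 differed by less than the sum of their SDs. In Setdb1 KO mESCs Rhox13 was second, at 4.32 ± 0.509, after Rhox5 at 33.0 ± 14.4. In the combined condition Rhox13 was at 5.80 ± 5.08 and Rhox5 at 58.9 ± 26.7 CPM per kb.

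The replicates differed in a way that was shared between conditions, as the plot of replicate ratios shows. In the fit with the block, Rhox1 was higher in replicate 2 by 1.60 on the log2 scale (adjusted p = 0.0171 in edgeR), while Rhox5 was at -1.03 (adjusted p = 0.00861 in edgeR) and Rhox8 at -2.51 (adjusted p = 0.0349 in edgeR) for replicate 2 over replicate 1. Each kept this direction in 4 of 4 conditions. Of all features, 34.91% had such a difference between the replicates. The other 6 members did not pass this test, and Rhox13 was at 0.003 (adjusted p = 0.998 in edgeR).

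**Figure D5:**
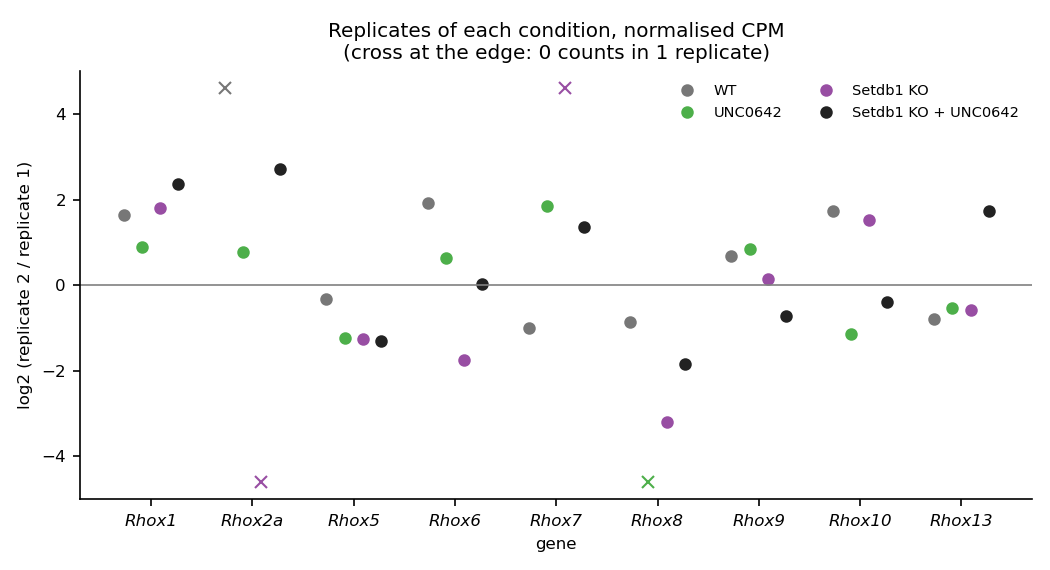
Log2 ratio of replicate 2 to replicate 1 in normalised CPM (y axis) for the 9 testable members (x axis), 1 point for each condition, with a cross at the edge where 1 of both replicates had 0 counts. The points of Rhox1 lie above 0 in 4 of 4 conditions and those of Rhox5 and Rhox8 below 0 in 4 of 4.

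Genes that act on chromatin and other homeobox genes of the germ line were read beside the cluster. Of 22 regulators of chromatin and DNA methylation (among them Setdb1, Trim28, Ehmt2, Dnmt1, Dnmt3b, Uhrf1 and E2f6, but also Tet1, Tet2, Tet3 and Kdm6a, whose products act against silencing marks), all could be tested and 0 were called by edgeR without the block in any of the comparisons, with 0, 3 and 3 at an unadjusted p under 0.05 in UNC0642-treated mESCs, Setdb1 KO mESCs and the combined condition over WT mESCs. Of all features, 3.35%, 8.70% and 18.0% passed that limit in the same order. With the block, Setdb1 was lower and Atf7ip, a partner of SETDB1, higher than in WT mESCs in both KO conditions, and Ehmt2, which encodes G9a, was lower in the combined condition. Of all features, the block fit called 4.30% in Setdb1 KO and 17.2% in the combined condition over WT mESCs. Of 10 other reproductive homeobox genes, 5 could be tested, and 0 were called by edgeR without the block, with 3 at an unadjusted p under 0.05 in each of these comparisons. With it, Duxbl1 was higher and the X-linked Esx1, known from placenta and testis, lower than in WT mESCs in both KO conditions. Obox3, of the oocyte homeobox family, was higher in the combined condition with the block, with 0 and 0 counts in WT and 5 and 13 in the combined condition. Obox3 passed the filter on low counts only through libraries with UNC0642, in which it was high. Its call is therefore a description and no independent support. The same gene had 14 and 13 counts in UNC0642-treated mESCs (adjusted p = 0.490 in edgeR, 0.236 with the block), the condition in which Rhox2a had its highest counts.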

How the data were processed

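Poly(A) RNA-seq libraries of mESCs (4 conditions, 2 biological replicates) were analysed from raw counts per gene and transposable element subfamily. The deposited counts were made by the authors with Trim Galore 0.3.7, TopHat2 (GRCm38) and TEtranscripts at its default parameters, which can share a read between several positions. Conditions and replicate numbers came from the labels. The members and lists were chosen with earlier results of these data known, and all rows starting with Rhox are named or counted.

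Features passing filterByExpr (minimum count 10, minimum total 15) were normalised by TMM and fitted in edgeR 4.0.16 (R 4.3.3) over 8 libraries with a prior count of 0.125, and p-values were adjusted by Benjamini-Hochberg. DESeq2 1.42.0, a replicate block, RLE, library totals, no filter, genes only, a prior count of 2 and leaving out each library were alternatives, and DESeq2 with the block was added after seeing the data. Fits were tested on simulated data. Same-numbered replicates deviated together in all 6 pairs of conditions (Pearson r across features 0.285 to 0.663, not independent). The replicate block is printed where it changed the call of a member, and for the listed genes in part of the comparisons. Positions were taken from GENCODE M21 for 98.4% of the genes, and promoter windows came from RefSeq (GRCm38.p6). Protein sequences were not used here.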

Additional observations from a re-analysis of the deposited data

How the results depend on the processing

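Most calls were the same under the alternatives, and those that moved concern Rhox2a and Rhox13. The number of members called higher in Setdb1 KO over WT mESCs was 1 instead of 0 with DESeq2 on all 8 libraries and with DESeq2 and the replicate block. Between the combined condition and WT mESCs it was 2 with the replicate block in edgeR and in DESeq2, and 1 with DESeq2 on all 8 or on only the 4 libraries compared. Between the UNC0642 conditions it was 1 with DESeq2 on all 8 libraries and with DESeq2 and the replicate block. The block changed no other call of a member. With a fold change above 10 also required, 0 members were called in each comparison by edgeR without the block. Leaving out 1 library, the number of silent members was 10 to 11, thinning to the smallest library gave 10, and a limit of 3 counts per library gave 17. Of 45 pairs of a testable member and a comparison, 18 changed direction when 1 library was left out and 3 under another alternative. The log2 fold change of Rhox13 between the KO conditions ranged from -0.67 to 1.02 when 1 library was left out, and the cause was not tested. For members with few reads, depth limits every comparison: 3 counts correspond to 0.112 to 0.256 CPM.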

Other observations

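The genes next to the cluster were read as a comparison of place. Of the 5 nearest genes of the table on each side, 7 could be tested and 0 were called by edgeR with or without the block in any comparison, with Gm9 alone at an unadjusted p under 0.05. Nkap, Ndufa1, Rnf113a1, Zbtb33, Tmem255a and Lamp2 had reads in every library. Gm9, the nearest one, had 3 and 25 counts in WT, 18 and 29 in UNC0642-treated and 1 and 1 in Setdb1 KO mESCs, with 1 and 6 in the combined condition. Its log2 fold change in Setdb1 KO over WT mESCs was -3.51 (SE 1.09, adjusted p = 0.253 in edgeR, 0.0982 with the replicate block), and it was chosen for mention after its values were seen. Gm9 passed the filter on low counts only through libraries without 4-OHT, in which it was high. Its fold change is therefore a description and no independent support.

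Among 580 other testable X-linked genes, edgeR called 55 higher (9.48%) and 4 lower (0.690%) in the combined condition than in WT mESCs. Of all features, it called 3.6% higher and 0.505% lower there. In Setdb1 KO over WT mESCs it called 12 higher (2.07%, beside 1.11% of all features). In UNC0642-treated mESCs it called 0 higher, also among all features. There, 40 were higher at an unadjusted p under 0.05 (6.90%, beside 2.96% of all features). With the block, 89 were higher (15.3%) and 33 lower (5.69%) in the combined condition, beside 9.98% and 7.19% of all features. In Setdb1 KO mESCs 37 were higher (6.38%, beside 3.8% of all features). Under UNC0642 alone 4 were higher (0.690%, beside 0.166% of all features).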
